A study of Caenorhabditis briggsae with 9 samples.

Results

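Cbr-spr-4 (CBG11849) and Cbr-htz-1 (CBG01691) are the chromatin genes that the mutant strains of a Caenorhabditis briggsae RNA sequencing study are named for. They were taken by their identifiers, as 2 of the 22922 genes in the count table, and both passed the filter on low counts. Each was followed in its own mutant, in the other mutant and in the wild type. C. briggsae is a free-living nematode and a close relative of C. elegans. The strains were a mutant with allele gu163 of Cbr-spr-4, which the labels also name Cbr-ivp-1, a mutant with allele gu167 of Cbr-htz-1, also named Cbr-ivp-2, and the wild-type isolate AF16. All were untreated third-stage (L3) larvae, grown at 20 degrees and collected as whole animals just ahead of the first divisions of the vulval precursors. Each strain gave 3 libraries, called independent biological replicates in the labels. Each mutant strain stands for 1 allele, and the kinds of lesion they carry were not given in the sources used here.

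In C. elegans, SPR-4 is a nuclear protein with C2H2 zinc fingers, found because its loss suppresses the egg-laying defect of mutants in the presenilin gene sel-12. Other suppressors of the same kind encode subunits of a CoREST-type repressor complex, which removes activating marks from histones. Loss of these genes in C. elegans raises transcription of a second presenilin gene, hop-1. HTZ-1 is H2A.Z, a variant of histone H2A that takes its place in nucleosomes near many gene starts and is put there by SWR1-type remodelling complexes.

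Library totals lay between 8294524 and 14095189 counts. Levels are given as CPM, a gene's counts brought to a library of 1 common size after TMM scaling, a correction for differences in library composition. AF16 replicate 3 had the lowest TMM factor (0.746) and gu167 replicate 3 the highest (1.20), so results that turn on these libraries are also given without them. Markers of muscle, intestine and neurons were detected in every strain, with none at 0. These same libraries were the extremes in summed muscle markers. AF16 replicate 3 had 34690 CPM, against 15720 and 18120 CPM in AF16 replicates 1 and 2. For gu167 replicate 3 the sum was 10900 CPM, against 23530 and 14850 CPM in gu167 replicates 1 and 2. The part of tissue content in the scaling was not tested. In whole-animal RNA, a change in the number of cells that express a gene cannot be told apart from a change in RNA per cell.

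Cbr-spr-4 transcript was highest in its own mutant, intermediate in the Cbr-htz-1 mutant and lowest in the wild type. Its fold change over AF16 was 2.17 in gu163, a rise that passed the test, and 1.39 in gu167, a difference that did not. Cbr-htz-1 transcript levels overlapped between the 3 strains, its own mutant included, and no difference passed.

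Cbr-spr-4 was measured at 251, 207 and 249 CPM in gu163, from 1927, 2501 and 3088 counts. It was measured at 152, 156 and 144 CPM in gu167 and at 88.0, 118 and 120.0 CPM in AF16. Every gu163 library lay above every gu167 library, and every gu167 library above every AF16 library. The means were 236 ± 24.6 CPM in gu163, 151 ± 6.09 CPM in gu167 and 109 ± 17.9 CPM in AF16 (SD, n = 3 each). The gu167 libraries differed least among themselves, with an SD of 4.04% of the mean, against 10.5% in gu163 and 16.5% in AF16.

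Against AF16, the log2 fold change of Cbr-spr-4 in gu163 was 1.12 ± 0.16 (SE; 95% interval 0.76 to 1.48), with an adjusted p of 0.00232 by edgeR's quasi-likelihood test over 12507 genes. An adjusted p under 0.05 was called changed. In that comparison 9.3% of the genes tested were called, 6.36% higher and 2.94% lower, and 612 of the 795 genes called higher had a log2 fold change at least as large. The fold interval ran from 1.69 to 2.78. The exact two-sided permutation test gave p = 0.1, the smallest value that 3 libraries against 3 allow, and 27.5% of all genes tested likewise had no overlap between these strains. The call held in each of the 9 fits that left out 1 library (log2 0.98 to 1.20), and was lost at the stricter threshold of 0.0005.

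In gu167 the log2 fold change of Cbr-spr-4 over AF16 was 0.47 ± 0.16 (95% interval 0.11 to 0.83), and it did not pass (edgeR adjusted p = 0.201). There 2.09% of genes were called, 1.97% higher and 0.128% lower. The exact two-sided permutation p was again 0.1, and 19.5% of all genes tested likewise had no overlap between the libraries of these strains. With no scaling beyond the library total, the log2 fold change was 0.76 and passed (edgeR adjusted p = 0.0323). That setting moved the median log2 fold change of all genes by 0.27, and relative to that median Cbr-spr-4 stood at 0.50, against 0.49 with TMM.

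The own mutant was also compared directly with the other one. Cbr-spr-4 was higher in gu163 than in gu167 by a log2 fold change of 0.65 ± 0.16 (95% interval 0.29 to 1.0; edgeR adjusted p = 0.0264), in a comparison where 13.5% of genes were called, 8.33% higher and 5.13% lower. The exact two-sided permutation p was 0.1, and 38.8% of genes had no overlap between these libraries. This call was lost in 9 of 20 alternatives, although the log2 fold change stayed between 0.53 and 0.73 in all of them. It was lost without gu163 replicate 1 (edgeR adjusted p = 0.0800) or 3 (0.0919), and without gu167 replicate 1 (0.0595), 2 (0.0850) or 3 (0.0966). Leaving out replicate 3 of both gu167 and AF16 ended it as well (0.0508), as did scaling by the total alone (0.0557).

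Cbr-htz-1 was measured at 63.8, 49.7 and 53.2 CPM in gu163, from 490, 600 and 661 counts. In its own mutant gu167 it stood at 61.0, 62.8 and 57.5 CPM, and in AF16 at 60.6, 59.9 and 78.7 CPM. The libraries of all 3 strains overlapped. The means were 55.6 ± 7.33 CPM in gu163, 60.4 ± 2.71 CPM in gu167 and 66.4 ± 10.6 CPM in AF16 (SD, n = 3 each), an order in which no neighbours differed beyond their spread.

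The log2 fold change of Cbr-htz-1 in gu167 over AF16 was -0.13 ± 0.15 (edgeR adjusted p = 0.689), with a 95% interval of the fold from 0.721 to 1.15. Its sign rested on AF16 replicate 3 and on the scaling: without that library the value was 0.0014, and with no scaling beyond the total it was 0.15. In gu163 over AF16 it was -0.26 ± 0.15 (edgeR adjusted p = 0.342; fold interval 0.662 to 1.06). Between gu163 and gu167 it was -0.12 ± 0.15 (edgeR adjusted p = 0.649; fold interval 0.726 to 1.16). Exact two-sided permutation tests gave p = 0.6 in gu167 over AF16, p = 0.3 in gu163 over AF16 and p = 0.4 between the mutants.

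**Figure D1:**
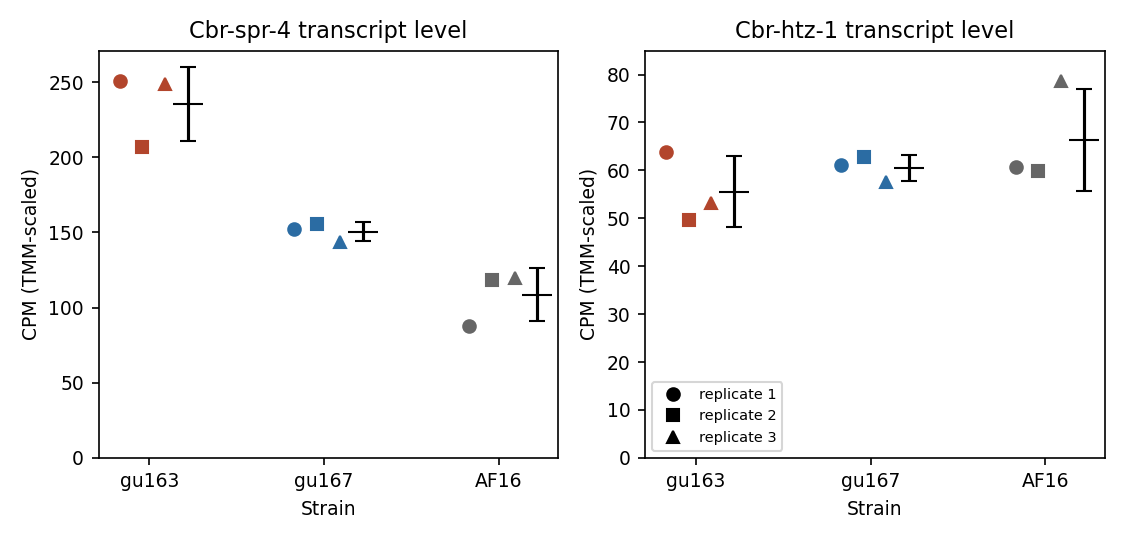
Transcript level of Cbr-spr-4 (left) and Cbr-htz-1 (right) in CPM, TMM-scaled, for each library (circle, square and triangle for replicates 1, 2 and 3) with the mean ± SD of each strain in black. Cbr-spr-4 lies between 207 and 251 CPM in gu163, above all gu167 and AF16 libraries, whereas the Cbr-htz-1 values of the 3 strains overlap.

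CPM depends on how each library is scaled, but the ratio of the counts of these genes within a library does not. For each Cbr-htz-1 count there were 3.93, 4.17 and 4.67 Cbr-spr-4 counts in the gu163 libraries, 2.49, 2.48 and 2.50 in the gu167 libraries, and 1.45, 1.97 and 1.52 in the AF16 libraries. The exact 95% intervals, which cover counting error only, ran from 3.56 to 5.09 over the gu163 libraries, from 2.27 to 2.76 over gu167 and from 1.31 to 2.17 over AF16. The strains did not overlap in this ratio, and the gu167 libraries lay closer together than their counting intervals are wide. The mean ratio was 4.26 ± 0.378 in gu163, 2.49 ± 0.0115 in gu167 and 1.65 ± 0.282 in AF16 (SD, n = 3 each). Each pair of strains gave an exact two-sided permutation p of 0.1, the smallest possible. Because the ratio was formed after Cbr-spr-4 was seen to differ and Cbr-htz-1 to overlap, its separation restates those values free of the library scaling and adds no further evidence.

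**Figure D2:**
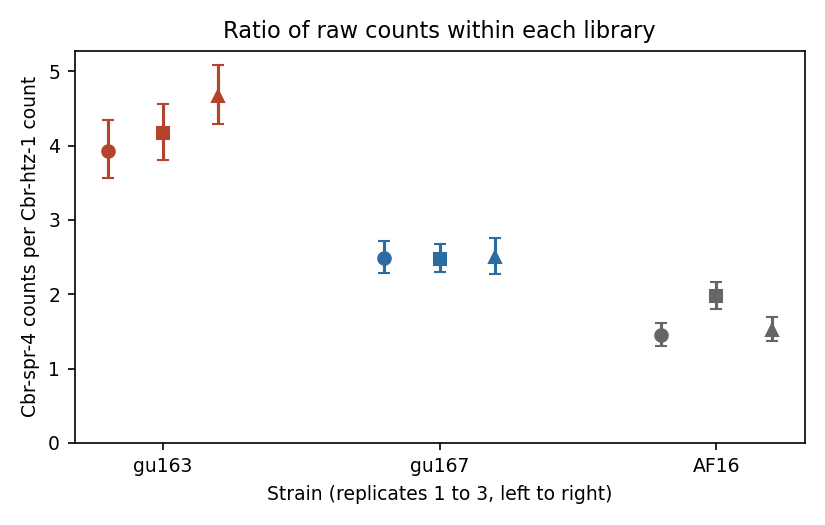
Cbr-spr-4 counts per Cbr-htz-1 count in each library, with exact 95% intervals for counting error. The gu163 libraries lie between 3.93 and 4.67, the gu167 libraries between 2.48 and 2.50 and the AF16 libraries between 1.45 and 1.97.

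**Figure D3:**
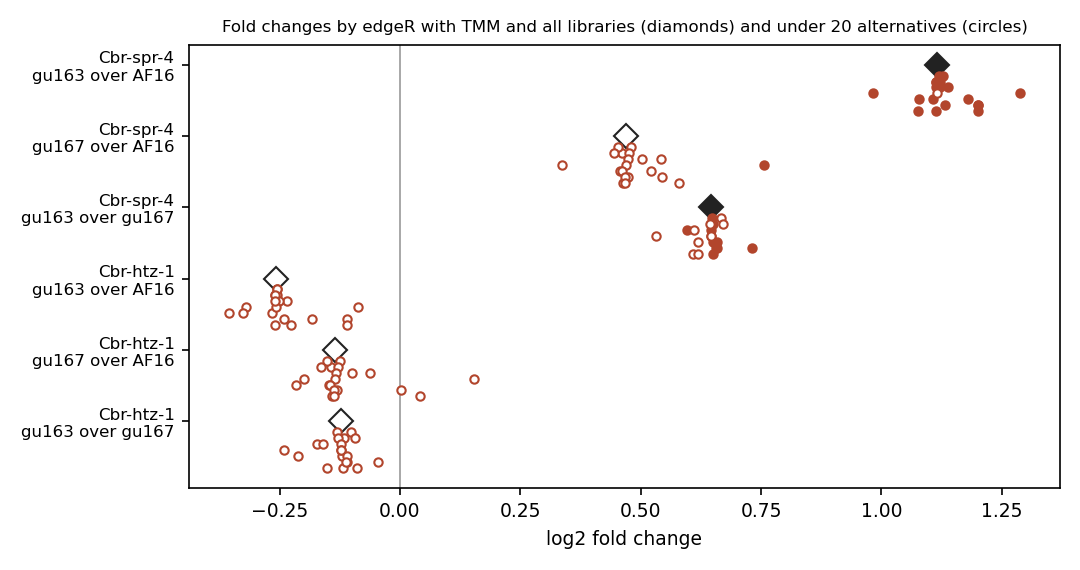
The log2 fold change of each gene in each comparison by edgeR with TMM and all libraries (diamonds) and under 20 alternatives (circles), filled where the adjusted p passed the threshold of that setting. Cbr-spr-4 in gu163 over AF16 stayed between 0.98 and 1.29, and Cbr-htz-1 in gu167 over AF16 lay on both sides of 0.

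The presenilin suppressor and CoREST genes, to which Cbr-spr-4 belongs, were examined as a list. Of 11 names in this list 9 were found in the files and all 9 were tested. In gu163 over AF16, edgeR called 1 of them higher, Cbr-spr-4 itself, and 0 lower. This count is near the background, where 9.3% of all genes were called. The list's median log2 fold change was -0.04, beside -0.01 for all genes. In gu167 over AF16 edgeR and DESeq2 called 0 of the 9. Over all 12507 genes edgeR called 2.09% there and DESeq2 called 636. By edgeR 2 of the 9 were higher and 1 lower at an unadjusted p under 0.05. The median was 0.00, beside -0.02 for all genes. The share of all genes at that unadjusted threshold was not computed, so such counts, for this list and those below, are descriptions only.

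Cbr-spr-3 encodes, like SPR-4 in C. elegans, a C2H2 zinc-finger protein. It was measured at 66.7, 72.4 and 56.6 CPM in gu163, at 59.0, 51.8 and 47.9 CPM in gu167, and at 86.8, 47.3 and 124.5 CPM in AF16. The AF16 libraries spread over the values of both mutants. Over AF16 the gu163 value was -0.40 ± 0.28 on the log2 scale (edgeR adjusted p = 0.433), and the gu167 value -0.70 ± 0.28 (edgeR adjusted p = 0.281). Without AF16 replicate 2, the lowest of the AF16 libraries, the value in gu167 was -1.01 and passed (edgeR adjusted p = 0.0339). In no other of the 20 alternatives did Cbr-spr-3 pass in gu167 over AF16. These include the fit without AF16 replicate 3, its highest library at 124.5 CPM.

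Cbr-spr-1 encodes the CoREST subunit. Its levels were 45.6, 34.5 and 41.3 CPM in gu163, 36.7, 36.2 and 33.4 CPM in gu167, and 30.93, 31.98 and 33.11 CPM in AF16. Each mutant library lay above each AF16 library. Likewise 27.5% of all genes tested had no overlap between gu163 and AF16, and 19.5% none between gu167 and AF16. Neither difference passed, at a log2 fold change of 0.34 ± 0.14 for gu163 (edgeR adjusted p = 0.173) and 0.15 ± 0.14 for gu167 (edgeR adjusted p = 0.621). The 95% interval in gu163 was 0.03 to 0.65, below that of Cbr-spr-4.

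Cbr-spr-5 encodes the LSD1-type histone demethylase. It stood at 41.1, 29.7 and 36.4 CPM in gu163, 34.6, 35.7 and 35.2 CPM in gu167, and 35.9, 36.2 and 38.1 CPM in AF16. The log2 fold changes over AF16 were -0.04 ± 0.14 in gu163 and -0.06 ± 0.14 in gu167 (edgeR adjusted p = 0.893 and 0.856). Cbr-spr-2, of the SET and NAP histone chaperone family, stood at 0.07 ± 0.13 in gu163 and 0.32 ± 0.13 in gu167 on that scale (edgeR adjusted p = 0.783 and 0.282). The histone deacetylase genes Cbr-hda-1, Cbr-hda-2 and Cbr-hda-3 lay between -0.25 and -0.01 in gu163 and between -0.29 and 0.09 in gu167, and the amine oxidase gene Cbr-amx-1 at -0.09 and 0.00. None of these passed.

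Of 6 presenilin and gamma-secretase genes 5 were tested. Cbr-spe-4 had 0 counts in all libraries. By edgeR and by DESeq2, 0 were called in gu163 or gu167 over AF16, where edgeR called 9.3% and 2.09% of all genes. At an unadjusted p under 0.05, 0 were higher and 0 lower in gu163, and 1 was higher in gu167. The list's median log2 fold change was -0.17 in gu163 and 0.19 in gu167, beside -0.01 and -0.02 for all genes.

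Cbr-hop-1, the counterpart of the presenilin gene that SPR-4 represses in C. elegans, was measured at 1.43, 2.98 and 2.34 CPM in gu163, from 11, 36 and 29 counts. It was measured at 1.42, 4.35 and 4.52 CPM in gu167 and at 1.21, 1.56 and 1.13 CPM in AF16, from 12, 18 and 9 counts. In each mutant replicate 1 lay among the AF16 values, and the other libraries lay above them. Over AF16 its log2 fold change reached 0.80 ± 0.48 in gu163 (95% interval -0.26 to 1.85; edgeR adjusted p = 0.343) and 1.38 ± 0.46 in gu167 (0.35 to 2.40; edgeR adjusted p = 0.192). Without gu167 replicate 1, its lowest gu167 library, the value in gu167 was 1.74 and passed (edgeR adjusted p = 0.0497). In no other of the 20 alternatives did Cbr-hop-1 pass in gu167 over AF16. Cbr-sel-12, the other presenilin gene, stood at -0.17 ± 0.22 in gu163 and -0.14 ± 0.22 in gu167 (edgeR adjusted p = 0.698 and 0.774).

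**Figure D4:**
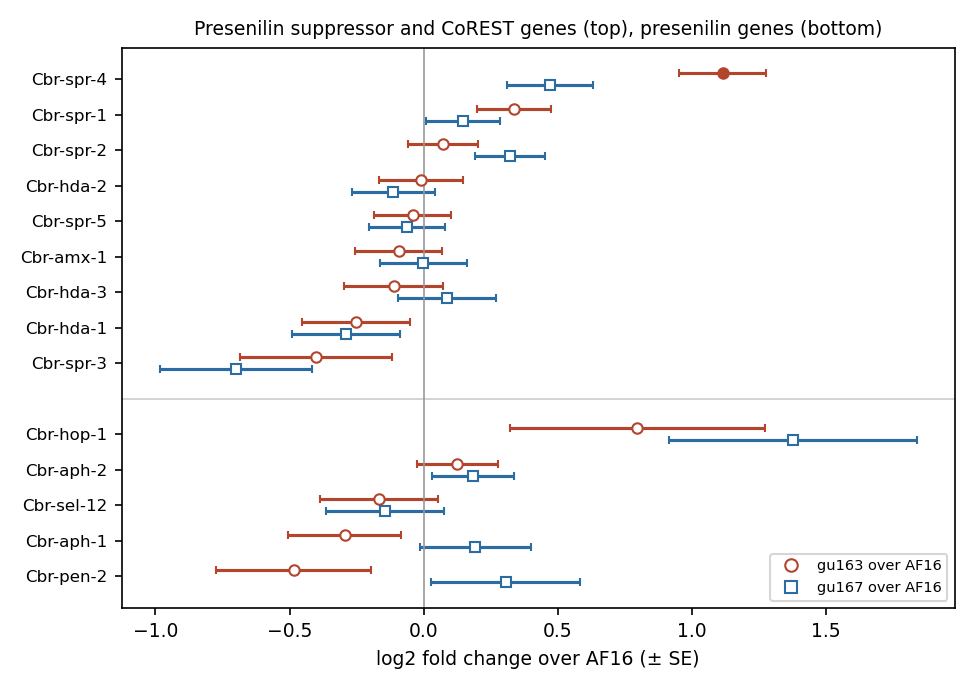
log2 fold changes over AF16 (± SE) of the presenilin suppressor and CoREST genes and of the presenilin and gamma-secretase genes, for gu163 (circles) and gu167 (squares), filled where the edgeR adjusted p was under 0.05. Cbr-spr-4 in gu163, at 1.12, is the filled point.

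Genes whose products deposit H2A.Z or act with it formed a further list. Of 19 names 15 were found and tested, Cbr-htz-1 among them. By edgeR and DESeq2 0 were called in gu163 over AF16, with 1 higher and 1 lower at an unadjusted p under 0.05, and 0 in gu167 over AF16, with 1 higher and 0 lower. Over all 12507 genes edgeR called 9.3% and 2.09% there, and DESeq2 called 1617 and 636. A count of 0 of 15 is near the edgeR background. The median log2 fold change was 0.02 in gu163 and 0.01 in gu167, beside -0.01 and -0.02 for all genes.

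Cbr-ssl-1 encodes the SWR1-type ATPase that in C. elegans is held to load H2A.Z. Its levels were 205, 172 and 179 CPM in gu163, 176, 184 and 170.2 CPM in gu167, and 138, 181 and 207 CPM in AF16, and all strains overlapped. The log2 fold changes over AF16 were 0.08 ± 0.17 in gu163 and 0.01 ± 0.17 in gu167 (edgeR adjusted p = 0.812 and 0.980). Cbr-arp-6, Cbr-zhit-1 and Cbr-gfl-1, which encode counterparts of other subunits of such complexes, lay at -0.11, 0.03 and 0.03 in gu163 and at 0.29, 0.30 and 0.23 in gu167, without passing.

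Cbr-trr-1, a TRRAP-type subunit of the NuA4 acetyltransferase complex, was measured at 166, 266 and 212 CPM in gu163, at 211, 233 and 239 CPM in gu167 and at 172, 160 and 135 CPM in AF16. Each gu167 library lay above each AF16 library, and 19.5% of all genes tested likewise had no overlap between these strains. Neither difference from AF16 passed, with a log2 fold change of 0.46 ± 0.19 for gu163 and 0.55 ± 0.19 for gu167 (edgeR adjusted p = 0.171 and 0.206). Other members of that complex, Cbr-mys-1, Cbr-epc-1, Cbr-ekl-4, Cbr-ing-3 and Cbr-mrg-1, lay between -0.23 and 0.17 in gu163 and between -0.22 and 0.08 in gu167.

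The AAA+ ATPase genes Cbr-ruvb-1 and Cbr-ruvb-2, whose products are shared by several remodelling complexes, had lower means in gu163 than in gu167, differences that did not pass. Cbr-ruvb-1 stood at 57.2, 50.5 and 53.6 CPM in gu163 against 86.5, 78.1 and 63.6 CPM in gu167 (log2 -0.50 ± 0.18, edgeR adjusted p = 0.0980). Cbr-ruvb-2 stood at 55.5, 53.68 and 54.04 CPM in gu163 against 74.8, 74.3 and 72.6 CPM in gu167 (log2 -0.44 ± 0.13, edgeR adjusted p = 0.0516). In neither gene did the mutants' libraries overlap, as was so for 38.8% of all genes tested. DESeq2 called Cbr-ruvb-2 (adjusted p = 0.0287), as edgeR did without AF16 replicate 1 (adjusted p = 0.0340) or AF16 replicate 3 (0.0242). So did edgeR with upper-quartile scaling (adjusted p = 0.0315) and with only these groups fitted (0.0232). Cbr-ruvb-1 passed in that comparison without AF16 replicate 3 (edgeR adjusted p = 0.0384) and without replicate 3 of both gu167 and AF16 (0.02365). It passed there too with no scaling beyond the total (edgeR adjusted p = 0.0312) and with only these groups fitted (0.0465). In gu163 over AF16 Cbr-ruvb-1 passed without AF16 replicate 1 (log2 -0.70, edgeR adjusted p = 0.0446).

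The files held 5 histone genes with a symbol other than Cbr-htz-1, and all were tested. They were the linker histone genes Cbr-hil-1 and Cbr-his-24, the H3.3 genes Cbr-his-71 and Cbr-his-72 and the centromeric H3 gene Cbr-cpar-1. By edgeR, DESeq2 and limma-voom 0 were called in gu163 or gu167 over AF16, where edgeR called 9.3% and 2.09% of all genes. At an unadjusted p under 0.05, 1 was higher and 0 lower in gu163, and 1 was higher and 1 lower in gu167. Cbr-cpar-1 had the same direction in both mutants, at log2 values of 0.47 ± 0.17 in gu163 and 0.49 ± 0.17 in gu167, without passing (edgeR adjusted p = 0.112 and 0.192). Cbr-his-72 stood at -0.03 ± 0.30 in gu163 and -0.70 ± 0.30 in gu167 (edgeR adjusted p = 0.966 and 0.308). Of 9 histone chaperone genes tested edgeR and DESeq2 called 0 in each mutant over AF16, with 2 higher and 0 lower in each at an unadjusted p under 0.05.

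**Figure D5:**
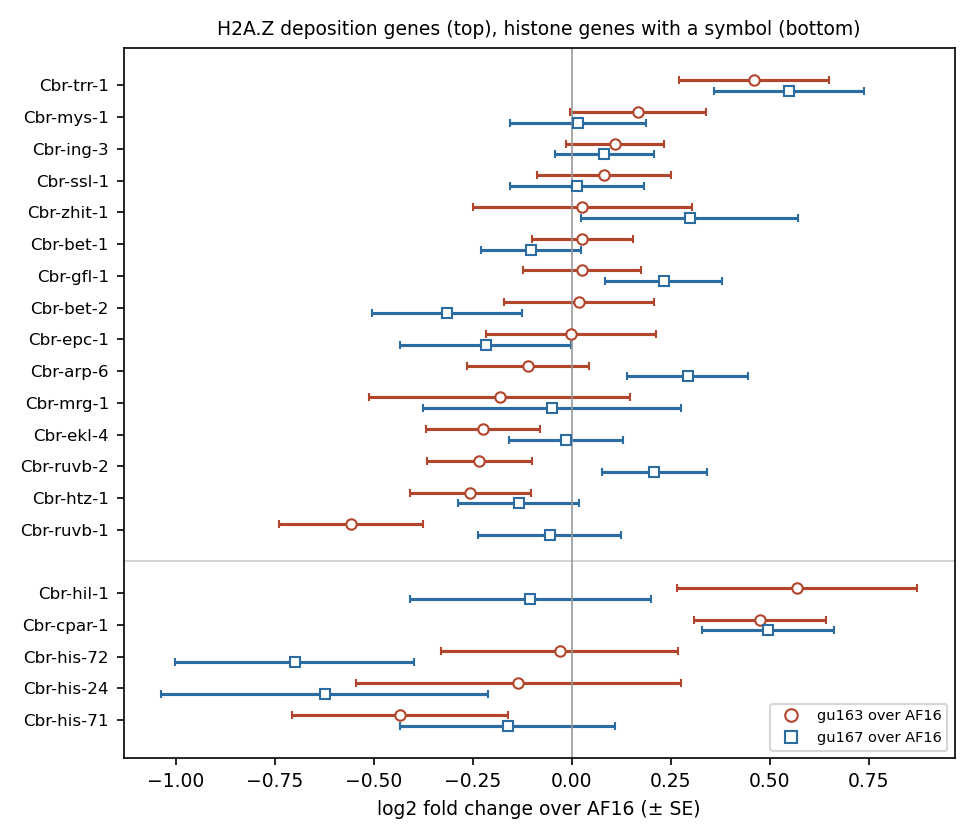
log2 fold changes over AF16 (± SE) of the H2A.Z deposition genes and of the histone genes with a symbol, for gu163 (circles) and gu167 (squares). No point is filled, since no gene had an edgeR adjusted p under 0.05.

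Among 14 tested genes of histone methylation, 1 rose in gu163 over AF16 and 0 fell, near the 9.3% of all genes called there. In gu167 over AF16, where edgeR called 2.09% of all genes, edgeR and DESeq2 called 0 of the list. At an unadjusted p under 0.05, 3 were higher and 1 lower in gu167. Cbr-set-25 had 0 counts in all libraries. The gene that rose was Cbr-mes-4, which in C. elegans encodes an H3K36 methyltransferase of the germline. It stood at 18.5, 23.2 and 21.8 CPM in gu163, 14.4, 15.75 and 13.97 CPM in gu167, and 10.3, 13.5 and 9.94 CPM in AF16. No strains overlapped. The same held for 27.5% of all genes tested between gu163 and AF16, 19.5% between gu167 and AF16 and 38.8% between the mutants. In gu163 over AF16 the log2 fold change was 0.91 ± 0.18 (edgeR adjusted p = 0.0103), and in gu167 over AF16 it was 0.39 ± 0.18 and did not pass (0.341). In gu163 over gu167 it was 0.52 ± 0.17 and did not pass either (edgeR adjusted p = 0.0735). DESeq2, which called 2288 genes in that comparison, called Cbr-mes-4 higher (adjusted p = 0.0373) and Cbr-mes-3 lower (0.0367). There edgeR called Cbr-mes-4 without AF16 replicate 3 (adjusted p = 0.04345) and with only these groups fitted (0.0404).

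The synMuv genes encode chromatin and transcription factors that in C. elegans hold back vulval fates. Of 22 tested, edgeR called 0 in gu163 over AF16, with 3 higher and 0 lower at an unadjusted p under 0.05. It called 0 in gu167 over AF16 too, with 1 higher and 1 lower. Over all genes edgeR called 9.3% and 2.09% in these comparisons. DESeq2 called Cbr-let-418 and Cbr-lin-9 higher in gu163 over AF16, and Cbr-efl-1 higher in gu167 over AF16. Of the 12507 genes it called 1617 and 636 there. In gu163 over gu167, where 13.5% of all genes were called, 2 were higher and 0 lower. These were the zinc-finger gene Cbr-lin-13 (log2 0.64 ± 0.15, edgeR adjusted p = 0.0211) and the Mi-2 remodeller gene Cbr-let-418 (0.54 ± 0.15, edgeR adjusted p = 0.0413). Their calls were lost without any 1 gu167 library (edgeR adjusted p up to 0.0809 and 0.15), and without gu163 replicate 1 or 3. That of Cbr-let-418 was also lost without gu163 replicate 2 (0.0730), AF16 replicate 1 (0.0518) or AF16 replicate 2 (0.0515). The replicate block (edgeR adjusted p = 0.0915) and omitting the filter on low counts (0.0902) ended the call of Cbr-let-418 too, and scaling by the total alone ended both (0.184 for Cbr-let-418 and 0.0510 for Cbr-lin-13). Other synMuv genes passed under some settings, in both directions. DESeq2 called Cbr-lin-61 lower in gu163 than in gu167 (log2 -0.56, adjusted p = 0.0353). Without AF16 replicate 3 edgeR called 5, of which Cbr-lin-61 (log2 -0.55) and Cbr-lin-54 (-0.42) were lower in gu163.

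Of 12 tested zinc-finger genes, made up of the ztf genes with Cbr-spr-3 and Cbr-spr-4, Cbr-spr-4 was the 1 called in gu163 over AF16, a share near the 9.3% of all genes called there. Cbr-ztf-28 had 0 counts in all libraries. The list's median was -0.24 in gu163 over AF16, beside -0.01 for all genes. In gu167 over AF16 the median was 0.02 and edgeR and DESeq2 called 0, where edgeR called 2.09% of all genes. At an unadjusted p under 0.05, 1 was higher and 1 lower there.

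The genes next to each member were examined because it is not known whether the counts separate strands. In the CB4 gene table none of the 2 nearest genes on either side overlapped Cbr-spr-4 or Cbr-htz-1. Cbr-lin-10, which borders Cbr-spr-4 and in C. elegans helps to localise the EGF receptor, had 504, 773 and 833 counts in gu163, 768, 979 and 592 in gu167, and 640, 839 and 709 in AF16. Its log2 fold changes over AF16 were -0.20 ± 0.14 in gu163 and -0.29 ± 0.14 in gu167, without passing (edgeR adjusted p = 0.417 and 0.365).

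On the other side of Cbr-spr-4 lay CBG25158, which was too low to test. It had 3, 9 and 8 counts in gu163, 3, 8 and 3 in gu167, and 0, 1 and 0 in AF16. In these raw counts every mutant library held more than any AF16 library. Of the genes tested, 27.5% had no overlap in scaled levels between gu163 and AF16, and 19.5% none between gu167 and AF16. With 1 count in AF16, the ratio of its scaled counts was 18.3 in gu163 (95% interval 2.92 to 757) and 10.9 in gu167 (1.66 to 460.0), for counting error only. CBG11851, the next gene on that side, was lower in gu163 than in gu167 (log2 -0.79 ± 0.16, edgeR adjusted p = 0.0134), a call lost without gu163 replicate 1 (0.0553) or gu167 replicate 2 (0.0627) and with scaling by the total alone (0.0587). Against AF16 it stood at -0.46 ± 0.17 in gu163 and 0.33 ± 0.16 in gu167, without passing (edgeR adjusted p = 0.121 and 0.371).

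Around Cbr-htz-1 no tested neighbour passed. Cbr-chat-1 on one side, which in C. elegans encodes a chaperone of a lipid flippase, had log2 fold changes over AF16 of 0.01 ± 0.12 in gu163 and -0.07 ± 0.12 in gu167 (edgeR adjusted p = 0.974 and 0.818). CBG01692 on the other side stood at 0.05 ± 0.18 in gu163 and 0.19 ± 0.18 in gu167 (edgeR adjusted p = 0.890 and 0.620).

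Among 4924 tested genes with a symbol, the 5 whose log2 CPM followed Cbr-spr-4 most closely over the 9 libraries were Cbr-scl-2 (Pearson r = 0.98), Cbr-rig-4 (0.97), Cbr-gst-20 (0.96), Cbr-nmy-2 (0.96) and Cbr-aak-1 (0.96). These values are descriptions, since the libraries of a strain share its genotype and the scaling is common to all genes. The genes were also picked for following Cbr-spr-4 over these same libraries, so a shared strain order or direction adds no further evidence. Cbr-scl-2 encodes a secreted SCP-like protein, and Cbr-nmy-2 a non-muscle myosin heavy chain. Cbr-aak-1 encodes a catalytic subunit of AMP-activated kinase, and Cbr-gst-20 a glutathione transferase. In gu163 over AF16 their log2 fold changes ranged from 0.83 ± 0.14 for Cbr-nmy-2 to 2.31 ± 0.20 for Cbr-scl-2. In gu167 over AF16 they ranged from 0.20 ± 0.16 for Cbr-rig-4 to 1.06 ± 0.20 for Cbr-scl-2. The mean level of Cbr-scl-2 was 198 CPM in gu163, 83.2 CPM in gu167 and 39.8 CPM in AF16, the same order as that of Cbr-spr-4.

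The 5 genes closest to Cbr-htz-1 were Cbr-tli-1 (r = 0.95), the galectin gene Cbr-lec-3 (0.95), Cbr-pqn-39 (0.95), the translation elongation factor gene Cbr-eef-1B.2 (0.94) and the collagen gene Cbr-col-186 (0.94). None passed in gu163 over AF16, gu167 over AF16 or gu163 over gu167. They were picked by the same rule, and their mean levels were all highest in AF16, as was that of Cbr-htz-1. For Cbr-tli-1 the means were 43.8 CPM in gu163, 48.6 CPM in gu167 and 59.6 CPM in AF16. Over the same libraries the correlation between Cbr-spr-4 and Cbr-htz-1 was -0.42.

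Cbr-lin-3, the gene of the EGF-like ligand in vulval induction, was higher over AF16 in both mutants, by a log2 fold change of 2.49 in gu163 and 2.12 in gu167 (edgeR adjusted p = 0.00385 and 0.0221).

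Most markers of the germline were higher in each mutant than in AF16. Of 22 germline markers 20 were found and tested, and none was at 0 in any strain. Their summed level lay between 315 and 325 CPM in gu163, between 312 and 337 CPM in gu167 and between 181 and 236 CPM in AF16. In gu163 over AF16 13 were called higher and 0 lower, and in gu167 over AF16 11 and 0, where 9.3% and 2.09% of all genes were called. The log2 fold change over AF16 was positive for 18 of the 20 in each mutant, and the rest were below AF16 without passing. The summed levels of gu163 and gu167 overlapped. Of the single markers, edgeR called 1 higher and 1 lower in gu163 than in gu167, where 13.5% of all genes were called. The part of the germline in the levels of Cbr-spr-4 was not tested.

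Sperm markers, of which 9 were found, summed to between 60.6 and 124 CPM in gu163, between 44.7 and 52.9 CPM in gu167 and between 34.5 and 42.3 CPM in AF16. The higher sum in gu163 than in gu167 came largely from Cbr-spe-27. It stood at 73.8, 28.7 and 9.58 CPM in gu163, 1.17, 0.693 and 0.703 CPM in gu167, and 1.01, 1.30 and 1.39 CPM in AF16. Cbr-spe-41 was also higher, at 4.95, 7.70 and 5.80 CPM in gu163 against 0.417, 0.567 and 0.402 CPM in gu167 (log2 3.68, edgeR adjusted p = 0.00078). Cbr-fer-1 went the other way and was lower in gu163 than in gu167 (log2 -2.28, edgeR adjusted p = 0.00866). Of the 6 sperm markers tested, 4 were called higher and 0 lower in gu163 over AF16, where 9.3% of all genes were called. In gu167 over AF16 2 were called higher and 0 lower, where 2.09% of all genes were called. Cbr-spe-4 was at 0 in every strain and Cbr-spe-9 in AF16. The 5 yolk markers of adults summed to between 20.5 and 35.0 CPM in gu163, 12.8 and 356 CPM in gu167, and 46.8 and 66.7 CPM in AF16. The highest value was that of gu167 replicate 3. The part of these cells and stages in the levels of either gene was not tested.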

How the data were processed

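Per the labels' protocols, total RNA of whole L3 animals went through rRNA depletion and single-read sequencing. The authors deposited whole-number counts for each gene and library, without normalization. The table of the series and the single-library files held the same counts in 9 of 9 libraries. STAR, DESeq, Trim Galore and FastQC stand in the submitters' processing notes. Build, annotation, counter and strandedness were not given in the sources used here. Symbols came from a RefSeq gene table of assembly CB4, used for names and neighbours only. It matched 22727 of 22922 identifiers.

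Counts were tested with edgeR 4.0.16 (R 4.3.3): TMM, expression filter with a minimum count of 10, all 9 libraries in 1 robust quasi-likelihood fit of 3 groups, Benjamini-Hochberg adjustment over 12507 genes, and 95% intervals from the F statistic. Exact permutation tests used mean log2 CPM with a prior count of 2. The labels print the study's FDR as 0.05%, which was read as 0.05, with 0.0005 as an alternative. DESeq2 1.42.0 and limma-voom (limma 3.58.1) were also alternatives. The steps were tested on simulated counts. Replicate pairs differed by 17.3 to 79.2 times sampling noise (chi-square per degree of freedom), so each library was counted separately.

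The members and gene lists were chosen with earlier results of these data known. Named genes were the members, all CoREST and presenilin list genes, H2A.Z deposition genes, up to 5 called genes of each other list, Cbr-lin-3, 2 neighbours on each side and the 5 most correlated genes. Further genes were named after their values were seen: the histone genes, the list genes called by DESeq2 or under another setting, the sperm markers called between the mutants, and those at 0.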

Additional observations from a re-analysis of the deposited data

How the results depend on the processing

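Over the 6 comparisons of Cbr-spr-4 and Cbr-htz-1 and 20 alternatives, 106 of 120 values kept their direction and side of the threshold, 10 lost a call, 1 gained one and 3 changed sign. The value changed sign for Cbr-htz-1 in gu167 over AF16, at 0.15 with no scaling beyond the total, 0.0014 without AF16 replicate 3 and 0.0407 when replicate 3 of both gu167 and AF16 was left out. Its values ran from -0.22 to 0.0014 in the fits without 1 library. With no scaling, Cbr-spr-4 passed in gu167 over AF16 (0.76) and lost its call in gu163 over gu167 (0.53). The call in gu163 over gu167 was also lost when both of those libraries were left out (0.62), and ranged from 0.61 to 0.73 without 1 library. At 0.0005 the calls of 1.12 in gu163 over AF16 and 0.65 in gu163 over gu167 were lost. The causes were not tested. Scaling by the total alone moved the median of all genes by 0.16, 0.27 and -0.11 in gu163 over AF16, gu167 over AF16 and gu163 over gu167.

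The replicate numbers were shared between strains. Deviations of same-numbered libraries from their strain means correlated at -0.29 to 0.25, above 0.1 in 3 of 9 pairs. Between gu163 and gu167 the values were 0.23, -0.08 and 0.25 for replicates 1, 2 and 3. With 3 libraries a strain, such values cannot tell whether same-numbered libraries were handled together. With the replicate block Cbr-spr-4 in gu163 over gu167 stood at 0.64 and did not pass (edgeR adjusted p = 0.0588), and the genes called in gu167 over AF16 were 173. The block also ended the call of Cbr-let-418 in gu163 over gu167 (edgeR adjusted p = 0.0915), and no other call of Cbr-spr-4, Cbr-htz-1, Cbr-mes-4, Cbr-lin-13 or CBG11851.

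Over all genes, edgeR called 1163 in gu163 over AF16, 262 in gu167 over AF16 and 1683 in gu163 over gu167. With only the compared groups in the fit these were 759, 169 and 2290, and at 0.0005 they were 85, 42 and 25. DESeq2 called 636 in gu167 over AF16, and with no scaling 1012 were called in gu163 over gu167. Without 1 library the counts ran from 654 to 1108, from 152 to 367 and from 710 to 2488. Cbr-hop-1, with 9 to 69 counts a library, was the presenilin gene whose interval was widest.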
